A study of Macaca mulatta with 2 samples.

Results

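The prostaglandin D2 axis is the set of genes that make, sense and inactivate prostaglandin D2, and it was described in RNA-seq of macaque (*Macaca mulatta*) optic nerves. Its 6 members are the synthases *PTGDS* and *HPGDS*, the receptors *PTGDR* and *PTGDR2*, and the inactivating enzymes *HPGD* and *CBR1*. Members were taken by gene symbol from a table of 16684 genes, which held 5 of them. *CBR1* was not analysed here, because the Mmul_10 annotation carries that gene under an uncharacterized identifier and no such identifier is among the symbols of the table. The set was chosen by pathway with the levels of *PTGDS* and *HPGDS* in these libraries already known, so the levels are given as a description, with no test.

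The nerves were untreated and wild-type, and they formed 1 group of 2 libraries, Rep1 and Rep2. The study's methods name a 12-year-old male as the only source, collected postmortem, whereas the series description gives 2 animals, so the libraries may be nerves of the same animal and their spread may be technical. Values are TPM, read counts divided by gene length and scaled so that each library sums to 1000000, which allows levels to be compared between genes. With 1 condition there was no contrast to test, and the smallest two-sided p that 2 libraries allow in an exact sign test is 0.5.

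Prostaglandin D2 is formed from prostaglandin H2, the product of the cyclooxygenases, by either of a pair of unrelated enzymes. Lipocalin-type prostaglandin D synthase, encoded by *PTGDS*, is secreted into cerebrospinal fluid, also carries lipophilic ligands, and is known from meninges and oligodendrocytes. Hematopoietic prostaglandin D synthase, encoded by *HPGDS*, is a cytosolic glutathione transferase known from mast cells, Th2 cells and macrophages. The receptor DP1 (*PTGDR*) raises cyclic AMP, and DP2 (*PTGDR2*, also CRTH2) is a chemoattractant receptor of Th2 cells, eosinophils and basophils. *HPGD* encodes 15-hydroxyprostaglandin dehydrogenase, which inactivates prostaglandins, chiefly of the E and F series.

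The libraries differed widely across all genes. Rep1 listed 6425 genes (38.5%) at 0 and Rep2 listed 2082 (12.5%). Total read numbers are not part of the TPM table, but dividing a gene's Rep1 value by its Rep2 value gives a ratio of whole reads times a constant. That constant was 17.2, so 1 read in Rep1 carried as many TPM as 17.2 reads in Rep2. The smallest whole read numbers that give each ratio are lower bounds of the reads behind a value. Photoreceptor markers were higher in Rep1 in 7 of 8 genes, with a summed level of 3322 TPM against 10.2 TPM in Rep2, and their part in the results on the members was not tested. In bulk tissue, fewer cells of a type and less RNA per cell cannot be told apart.

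The coding starts of both synthases are shown because the enzymes they encode make the same product while their levels lay far apart. The first 120 coding bases are printed from the RefSeq transcripts annotated on Mmul_10, with the start codon in capitals.
PTGDS: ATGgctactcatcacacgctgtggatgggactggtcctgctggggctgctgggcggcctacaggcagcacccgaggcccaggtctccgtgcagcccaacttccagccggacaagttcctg
HPGDS: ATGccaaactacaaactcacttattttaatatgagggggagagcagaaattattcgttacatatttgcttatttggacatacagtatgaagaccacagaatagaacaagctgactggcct
The longest run of bases shared by the whole *PTGDS* and *HPGDS* transcripts was 10. No window of 50 bases of any of the 5 measured member transcripts, on either strand, occurred in a RefSeq transcript of another gene. Stretches of that length from the members therefore had no exact second match among annotated transcripts.

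**Figure D1:**
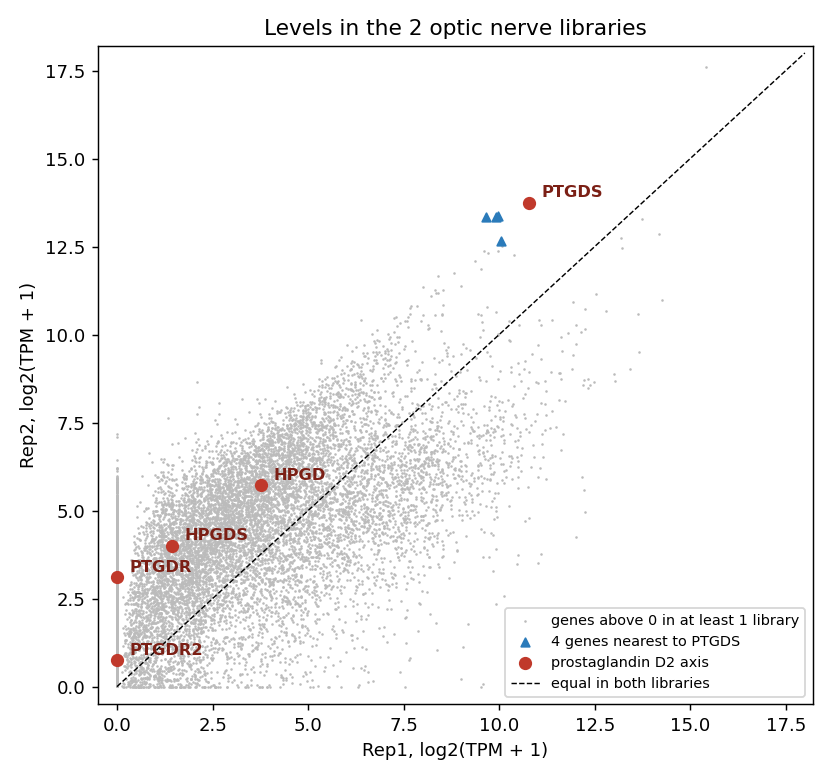
Level of each gene in Rep1 (horizontal axis) and Rep2 (vertical axis), both as log2(TPM + 1), for the 14693 genes above 0 in at least 1 library. The 5 measured members (red circles) all lie above the dashed line of equal levels, *PTGDS* at 10.77 in Rep1 and 13.75 in Rep2, and the triangles are the 4 genes nearest to *PTGDS*.

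*PTGDS* was by far the most abundant member and 1 of the most abundant transcripts of the nerve. It was at 1750 in Rep1 and 13774 TPM in Rep2, with at least 1171 and 158415 reads behind these values and a mean of 7762 ± 8503 TPM (SD, n = 2). In Rep2 it ranked 2 among all genes, below only *MBP*, which encodes myelin basic protein, and in Rep1 it ranked 77. It made up 1.38% of all TPM in Rep2 and 0.175% in Rep1. Ranked with the 14693 genes that either library detected, its mean stood at percentile 99.96. The gene lies on the minus strand of chromosome 15 of Mmul_10, 1234507 to 1238617, with 7 exons, a transcript of 832 bases and 570 coding bases. No annotated gene overlaps it. The nearest annotated features are a transcribed pseudogene 407 bases away and a lncRNA 3078 bases away, both on the same strand. The nearest genes with values are far lower, *CLIC3*, a chloride intracellular channel gene, being at 8.69 TPM in Rep2 and *LCN12*, another lipocalin, at 3.75 TPM in Rep2, both being at 0 in Rep1.

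*HPGDS* was low in both libraries. It was at 1.72 TPM in Rep1, which rests on at least 1 read, and at 15.1 TPM in Rep2, which rests on at least 151. The mean of 8.41 ± 9.46 TPM (SD, n = 2) stood at percentile 47.7. The gene occupies chromosome 5, minus strand, from 92678949 to 92716905, with 6 exons and 597 coding bases in a transcript of 873 bases. Its neighbour *SMARCAD1*, a chromatin remodelling gene 2651 bases away on the plus strand, was at 9.58 in Rep1 and 7.91 TPM in Rep2, and *PDLIM5*, on the other side, at 45.0 and 91.9 TPM.

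The ratio of the synthases was alike in both libraries, although the levels were not. *PTGDS* exceeded *HPGDS* 1019-fold in Rep1 and 913-fold in Rep2, a mean ratio of 966 ± 75.0 (SD, n = 2) that no scaling of a library can move. The level of *PTGDS* itself was 7.87 times and that of *HPGDS* 8.79 times as high in Rep2 as in Rep1. The Rep1 ratio is imprecise, because as few as 1 read may stand behind *HPGDS*. If that read number was 1, its exact 95% Poisson interval places the *PTGDS* to *HPGDS* ratio of Rep1 between 183 and 40234. If it was 151 in Rep2, that ratio lies between 778 and 1078. These intervals cover counting error only, and amplified copies of a molecule are not independent.

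Among all enzymes examined that act on prostaglandin H2, *PTGDS* held most of the TPM. The 8 terminal synthases with values summed to 2054 TPM in Rep1 and 14315 TPM in Rep2, of which *PTGDS* held 85.2% and 96.2%. *PTGES3*, which encodes the p23 co-chaperone and also has prostaglandin E synthase activity, was next in both libraries at 245 in Rep1 and 236 TPM in Rep2. Without it the mean share of *PTGDS* was 97.3%. *AKR1B1*, an aldo-keto reductase with prostaglandin F synthase activity, was at 30.3 in Rep1 and 192 TPM in Rep2. *PTGES2*, a prostaglandin E synthase, was at 15.8 in Rep1 and 70.7 TPM in Rep2. These enzymes have other substrates or roles, so their levels do not measure prostanoid output.

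The dedicated synthases of the other prostanoids had means of 5.64 to 8.15 TPM, against 8.41 TPM for *HPGDS*. Within a library their levels were less alike. *PTGES*, the inducible prostaglandin E synthase, was at 0 in Rep1 but at 11.4 TPM in Rep2. *PTGIS*, the prostacyclin synthase, was at 0.285 TPM in Rep1, on at least 1 read, and at 11.0 TPM in Rep2. *TBXAS1*, the thromboxane synthase, was at 11.7 in Rep1 and 4.61 TPM in Rep2, against 1.72 and 15.1 TPM for *HPGDS*. *TBXAS1* was the only gene of this list at least 2-fold higher in Rep1. In contrast, *PTGES*, *PTGES2*, *PTGIS* and *AKR1B1*, 4 of these 6 synthases besides the members, were at least 2-fold higher in Rep2. Of all genes above 0, 51.3% were at least 2-fold higher in Rep2 and 14.8% in Rep1, so both counts are near the background. *AKR1C3* and *PRXL2B* were not analysed here.

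Enzymes upstream of the synthases were far below *PTGDS*. *PTGS1* and *PTGS2*, the cyclooxygenases that supply prostaglandin H2, were both listed at 0 in Rep1, and in Rep2 they stood at 3.98 and 25.5 TPM. *PLA2G6*, a calcium-independent phospholipase A2, was at 4.95 in Rep1 and 23.2 TPM in Rep2. *PLA2G4A*, the cytosolic phospholipase that releases arachidonic acid, was at 0.840 in Rep1 and 0.416 TPM in Rep2. All 4 genes together summed to 5.79 TPM in Rep1 and 53.0 TPM in Rep2.

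**Figure D2:**
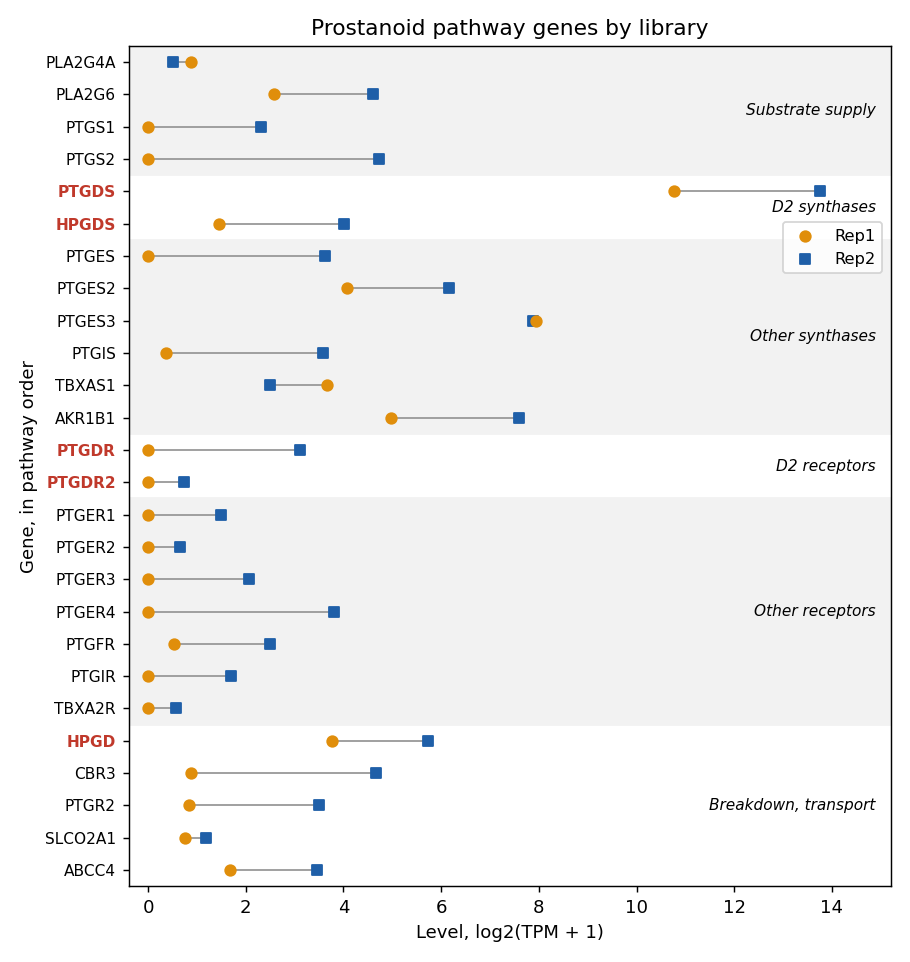
Level as log2(TPM + 1) in Rep1 (circles) and Rep2 (squares) of 26 prostanoid pathway genes, from substrate supply to breakdown, with the members in red. *PTGDS* is the highest gene in both libraries, and 8 of the 9 prostanoid receptors are at 0 in Rep1.

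Both prostaglandin D2 receptors were detected in Rep2 only. *PTGDR* was at 0 in Rep1 but at 7.66 TPM in Rep2, with a mean of 3.83 ± 5.41 TPM (SD, n = 2) at percentile 35.2. *PTGDR2* was listed at 0 in Rep1 as well and stood at 0.675 TPM in Rep2, its mean of 0.338 ± 0.477 TPM (SD, n = 2) being at percentile 11.5. A value of 0 does not show absence at the depth of Rep1. Of the 200 genes closest in Rep2 level, 28.0% for *PTGDR* and 71.5% for *PTGDR2* were also at 0 in Rep1. *PTGDR* lies on the plus strand of chromosome 7 from 114391661 to 114404290, with 2 exons, and *PTGDR2* on the plus strand of chromosome 14 from 13375182 to 13380279, also with 2 exons. The end of *PTGDR2* is 484 bases from that of *CCDC86* on the opposite strand, which reached 8.03 TPM in Rep2 but was at 0 in Rep1. On their other sides, *NID2* next to *PTGDR* was at 9.27 and 21.0 TPM, and *ZP1* next to *PTGDR2* was at 0 in both libraries. The sources used here do not say whether reads were counted by strand.

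Among all 9 prostanoid receptors *PTGDR* ranked 2 in Rep2, with 22.4% of their summed TPM. *PTGER4*, a receptor for prostaglandin E2, was the highest at 12.9 TPM. *PTGDR2* ranked 7 with 1.97% of the sum. *PTGFR*, the prostaglandin F receptor, was the only one above 0 in Rep1, at 0.453 TPM on at least 2 reads, and it stood at 4.63 TPM in Rep2. *PTGER3* followed at 3.18 TPM in Rep2, *PTGIR* at 2.26, *PTGER1* at 1.82, *PTGER2* at 0.570 and *TBXA2R* at 0.486 TPM. *PTGER2* is also the gene next to *PTGDR*, 22655 bases away on the same strand, and the longest run of bases shared by their transcripts was 14.

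*HPGD* was the second most abundant member. It was at 12.7 in Rep1 and 51.9 TPM in Rep2, from no fewer than 12 and 845 reads, and its mean of 32.3 ± 27.7 TPM (SD, n = 2) stood at percentile 72.8. It lies on chromosome 5, minus strand, from 171785257 to 171817063, with 7 exons, 798 coding bases and a transcript of 3227 bases. Its nearest genes with values are *CEP44*, at 2.50 and 8.15 TPM, and *GLRA3*, at 0 in both libraries. *PTGDS* exceeded it 138-fold in Rep1 and 266-fold in Rep2. *CBR3*, the carbonyl reductase most like *CBR1*, was at 0.845 TPM in Rep1, on at least 1 read, and at 24.3 TPM in Rep2. *PTGR2*, a prostaglandin reductase, was at 0.777 and 10.3 TPM in Rep1 and Rep2. Of the carriers that move prostaglandins across membranes, *SLCO2A1* was at 0.687 in Rep1 and 1.28 TPM in Rep2, and *ABCC4* at 2.19 and 9.96 TPM. All 4 of these genes were higher in Rep2, as were 75.9% of all genes.

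Prostaglandin D2 loses water to form J-series prostaglandins, which bind PPARγ and modify KEAP1. *PPARG*, which encodes that nuclear receptor, was at 2.32 in Rep1 and 2.73 TPM in Rep2. Its partner *RXRA* was at 0.776 and 0.738 TPM. *KEAP1* was at 3.06 in Rep1 and 38.8 TPM in Rep2, and *NFE2L2*, whose product KEAP1 restrains, at 27.0 and 176 TPM. The Rep1 values of *PPARG*, *RXRA* and *KEAP1* may rest on as few as 4, 3 and 3 reads.

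The order of the mean levels was *PTGDS*, *HPGD*, *HPGDS*, *PTGDR* and *PTGDR2*. Of the 10 pairs of members, 9 stood in this order in both libraries, and the receptors tied at 0 in Rep1. *PTGDS* was above *HPGD* by 7.51 ± 0.72 on the log2(TPM + 1) scale (SD of the within-library differences, n = 2), and their values did not overlap between libraries. This was 4.34 times the SD of a single library, taken from how far Rep1 and Rep2 lay apart in the 200 genes of closest mean level. The ranges of the remaining neighbours in the order overlapped. *HPGD* was above *HPGDS* by 2.02 ± 0.43 (1.13 single-library SDs), *HPGDS* above *PTGDR* by 1.17 ± 0.39 (0.648 SDs) and *PTGDR* above *PTGDR2* by 1.18 ± 1.68 (0.943 SDs). The last 2 steps were under 1 single-library SD, so the order of *HPGDS*, *PTGDR* and *PTGDR2* is not set apart from this spread. The single-library SD also holds the shift between the libraries, which cancels at least in part in a within-library difference. It is thus a coarse yardstick for every step. None of these steps was tested, since the levels of *PTGDS* and *HPGDS* were known when the set was chosen.

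All 5 measured members were higher in Rep2 than in Rep1, as were 75.9% of all genes above 0. The difference on the log2(TPM + 1) scale was 2.98 for *PTGDS*, 2.57 for *HPGDS*, 3.11 for *PTGDR*, 1.95 for *HPGD* and 0.74 for *PTGDR2*, with a median of 2.57 against 1.07 over all 14693 genes. This scale understates the change of low genes. At least a 2-fold difference in favour of Rep2 was seen in 4 of the 5 members and in 51.3% of all genes. None of the members was at least 2-fold higher in Rep1, against 14.8% of all genes. Scaling the libraries by the median of ratios took out a shift of -1.19 (log2, Rep1 relative to Rep2). Relative to that shift the differences were 1.79 for *PTGDS*, 1.61 for *HPGDS*, 2.60 for *PTGDR*, 0.81 for *HPGD* and 0.53 for *PTGDR2*. Then 3 of the 5 members and 33.8% of all genes were at least 2-fold higher in Rep2. Of all genes past 2-fold, 77.6% were higher in Rep2 as deposited and 58.8% after this scaling. The 200 genes nearest to *PTGDS* in mean level had a median difference of -1.36, that is higher in Rep1. *PTGDS* ranked 6 in mean TPM, so most of these genes lay below its level.

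The 4 genes whose levels were most like those of *PTGDS* over the 2 libraries were of high abundance themselves. By Euclidean distance on the log2(TPM + 1) scale they were *DCN* (0.903), a proteoglycan of fibroblasts, *CST3* (0.957), the secreted protease inhibitor cystatin C, *CLU* (1.18), the secreted chaperone clusterin, and *PLEKHB1* (1.31). *DCN* was at 995 in Rep1 and 10504 TPM in Rep2, and *CST3* at 964 and 10288 TPM. No gene lay within 0.5 of *PTGDS*. In contrast, 324 genes lay within 0.5 of *HPGDS*, the nearest being *SMIM15*, *TNFRSF6B*, *NUBPL*, *LBH* and *LYAR*, so this likeness does not single out any gene.

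**Figure D3:**
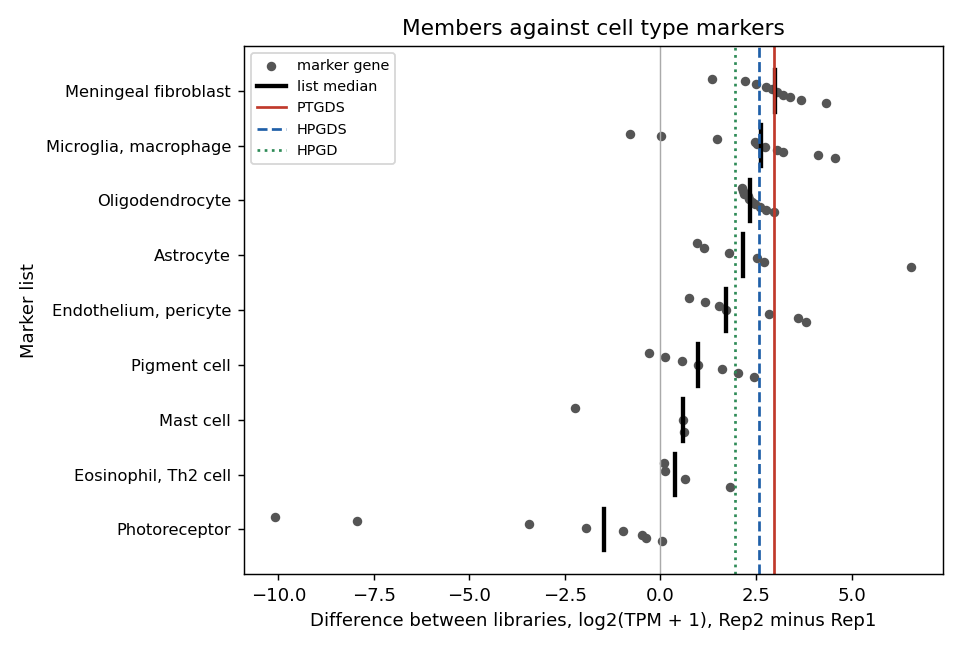
Difference between the libraries (horizontal axis, log2(TPM + 1), Rep2 minus Rep1) of the marker genes of 9 cell types (points, 1 row a list, bar at the median), with vertical lines for *PTGDS* (2.98), *HPGDS* (2.57) and *HPGD* (1.95). The medians run from 2.99 for meningeal fibroblasts to -1.47 for photoreceptors.

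Cell type markers moved between the libraries to different extents. The 10 meningeal fibroblast markers, among them *DCN*, *LUM* and *COL1A2*, were all higher in Rep2, as were 75.9% of all genes above 0. Their differences ran from 1.35 to 4.33, with a median of 2.99 next to 2.98 for *PTGDS*. Their summed level was 1724 TPM in Rep1 and 15906 TPM in Rep2, none being at 0. Of these differences 5 were above that of *PTGDS* and 5 below. The 10 oligodendrocyte markers, among them *MBP*, *MOBP* and *MAG*, were also all higher in Rep2, from 2.13 to 2.96 with a median of 2.36, each below *PTGDS*. They summed to 46094 TPM in Rep1 and 212728 TPM in Rep2, with none at 0. *PTGDS* was thus at 0.0400 of the level of *MBP* in Rep1 and 0.0690 in Rep2, and at 1.76 and 1.31 times the level of *DCN*. The 6 astrocyte markers ran from 0.96 to 6.55 with a median of 2.17, and summed to 774 and 5022 TPM. The highest of these differences was that of *AQP4*, at 3.26 TPM in Rep1, on at least 1 read, and 398 TPM in Rep2. The 7 markers of endothelium and pericytes ran from 0.74 to 3.80 with a median of 1.73, and summed to 83.3 and 328 TPM. *PTGDS* also lay within the differences of other lists. Above it were 1 astrocyte marker, 2 of endothelium and pericytes, and 4 of microglia and macrophages, with 5, 5 and 6 below. Its likeness to the fibroblast markers thus does not single out a cell type. Which cells carried *PTGDS* was not measured.

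Markers of cells known for *HPGDS* were present to different degrees. Of the 10 microglia and macrophage markers 9 were higher in Rep2, against 75.9% of all genes above 0. They summed to 224 TPM in Rep1 and 521 TPM in Rep2. Their differences ran from -0.79 to 4.56 with a median of 2.64, next to 2.57 for *HPGDS*, whose Rep1 value may rest on 1 read. Oligodendrocyte markers had a median of 2.36, so this likeness does not single out a cell type. *TMEM119*, *MRC1* and *CD163* were at 0 in Rep1, and stood at 16.4, 4.80 and 22.7 TPM in Rep2. *AIF1* was higher in Rep1, at 113 TPM against 64.5 TPM. Apart from *CPA3* in Rep1, the measured mast cell markers were at or near 0. *MS4A2* and *HDC* were at 0 in both libraries, and *KIT* and *FCER1A* stood at 0.518 and 0.536 TPM in Rep2 only. *CPA3* was at 4.22 TPM in Rep1, on at least 5 reads, and at 0.0982 TPM in Rep2, on at least 2. The 9 measured markers of eosinophils and Th2 cells, which carry DP2, were all at 0 in Rep1, as were 38.5% of all listed genes. Of these markers 5 were at 0 in both libraries, including *CCR3*, *IL5RA* and *CD3E*. Of all 16684 listed genes, 14693 were above 0 in at least 1 library. *GATA3* was the highest of these markers at 2.53 TPM in Rep2. Pigment cell markers, chosen because retinal pigment epithelium makes *PTGDS*, summed to 53.8 TPM in Rep1 and 115 TPM in Rep2, their median difference being 0.99. The part of these cells in the member levels was not tested.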

How the data were processed

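Libraries came from total RNA of macaque optic nerves (SMARTer v4 Ultra Low Input kit). Per the labels and methods, the authors trimmed reads with Trim Galore 0.6.6 after FastQC 0.11.9, aligned them to Mmul_10 with STAR 2.7.1a, counted them per gene with featureCounts 1.5.3 and deposited TPM values computed in R 4.2.0. Gene lengths and the use of strand are not given in the sources used here. The columns Rep1 and Rep2 match no sample title and served as replicates of the group.

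Levels were analysed with scipy 1.17.1, numpy 2.4.6 and pandas 2.3.3 in Python 3.11.15, with figures from matplotlib 3.10.9. Differences used log2(TPM + 1), a pseudocount of 1. Read ratios were taken as whole within 1e-13, with a product under 1000000000, which held for 10167 of 10168 genes. Positions and sequences came from RefSeq on Mmul_10. The steps were tested on simulated data. Depth in reads is unknown.

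Named were all members and pathway genes, the 3 highest relatives, markers, neighbours and up to 5 nearest patterns; 1 of these is not reported here. Other genes were named after their values were seen. Members, lists and alternatives were chosen with earlier results of these data known. Alternatives were scaling, pseudocount, filters, averages, nearest genes, synthase sets, list sums and single libraries.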

Additional observations from a re-analysis of the deposited data

How the results depend on the processing

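No paired analysis was possible because untreated nerves were the only group. Of 79 values recomputed from both libraries with another choice, 73 were within the spread set for them, and 6 moved beyond it. For levels this spread was the SD of the 2 libraries, which exceeded the mean for every measured member but *HPGD*. Ratios and shares within a library cannot move with its scaling. The 73 values thus say little about stability. With a pseudocount of 0.1 the log2 difference was 6.28 for *PTGDR* and 2.95 for *PTGDR2*, both listed at 0 in Rep1, where the pseudocount sets the value. *HPGDS* stood at percentile 34.6 when genes averaging under 1 TPM were left out, and *PTGDR2* at 22.1 among all listed genes, since other genes were ranked. *PTGDR2* gave no value in the former set. With summed lists, the log2 ratio of *PTGDS* to microglia and macrophage markers changed by 1.76 from Rep1 to Rep2, against -0.20 with list medians, and that to photoreceptor markers by 11.2 against 3.90, because the most abundant genes decide a sum. The sign of this change differed between medians and sums for the microglia and macrophage list and for astrocyte markers, at -1.14 with medians and 0.28 with sums in the latter. Genes at least 2-fold higher in Rep2 numbered 7533 as deposited and 4972 after the median of ratios, and those higher in Rep1 2170 and 3485. Members at least 2-fold higher in Rep2 numbered 3 to 5. They were 3 after the median of ratios, where 33.8% of all genes were, and 5 with a pseudocount of 0.1, where 63.5% were. The 16 values from a single library all stayed within the spread set for them. Each of 2 values always lies within 1 SD of their mean. For levels, the synthase ratio and the share this therefore says nothing about stability. The order of the members was held to a limit of 1.5-fold instead. It gave 10 pairs in Rep2 alone and 9 in Rep1 alone. In Rep1 the receptors were at 0 and *HPGDS* may rest on as few as 1 read, which limits what these values show.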

Other observations

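The protein families of the synthases were also examined. Lipocalins are small secreted carriers of lipophilic molecules. Of the 13 listed lipocalins other than *PTGDS*, 7 were above 0 in at least 1 library and none was above *PTGDS*. The highest was *APOD*, the carrier apolipoprotein D, at 186 in Rep1 and 1326 TPM in Rep2. *PTGDS* exceeded *APOD* 9.40-fold in Rep1 and 10.4-fold in Rep2. *RBP4*, the plasma carrier of retinol, was at 8.32 and 25.7 TPM, and *APOM* at 2.60 and 5.44 TPM.

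*HPGDS* was among the lower glutathione transferases. Of 15 listed genes of this group, which included microsomal forms, 13 had a mean above that of *HPGDS*. These were *GSTP1*, *GSTM2*, *GSTM3*, *GSTM4*, *GSTM5*, *GSTA4*, *GSTT1*, *GSTO1*, *GSTZ1*, *GSTK1*, *MGST1*, *MGST2* and *MGST3*. *GSTP1* was at 104 in Rep1 and 902 TPM in Rep2, *GSTM5* at 68.9 and 520 TPM, and *MGST3*, a microsomal form, at 21.6 and 190 TPM. All 14 genes of the group above 0 were higher in Rep2, 13 of them at least 2-fold, against 75.9% and 51.3% of all genes. Related *GSTM* genes may share reads, and how reads with several matches were counted is not given in the sources used here.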
